A study of Mus musculus with 7 samples.

Results

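Regions of open chromatin that were called in alpha cells and not in beta cells of the mouse islet, or in beta cells and not in alpha cells, were collected together with the genes that lie nearest to them. The members are 9561 regions, of which 7403 were alpha-selective and 2158 beta-selective, out of 743130 regions made by merging the 2 alpha and 3 beta peak lists wherever they overlapped by at least 1 bp. The 7 lists of the whole series merged into 834695 regions. A region was alpha-selective when both alpha peak lists held a peak in it and none of the 3 beta lists did, and beta-selective when all 3 beta lists held one and neither alpha list did. Each region was then given to the protein-coding gene whose transcript start was nearest.

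The cells came from triple transgenic mice, mIns1-H2b-mCherry x Rosa-LSL-YFP crossed to Gcg-Cre or to Sst-Cre, so every library shared the beta cell reporter and the Cre-activated YFP. The Ins1 promoter drives the H2b-mCherry mark of beta cells, Gcg-Cre switches on YFP in alpha cells and Sst-Cre in delta cells, and the transgene itself carries Ins1 promoter sequence. Islets of healthy mice were pooled by sex and sorted by FACS, both sexes were used in each cell type, and neither the age nor the cross that gave the beta cells is stated in the sources used here. There were 2 alpha, 3 beta and 2 delta libraries, and the delta libraries had no part in choosing the regions. The names of the 3 deposited beta files carry another cell type than their labels, and the labels were used, so every statement on beta cells rests on them.

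In ATAC-Seq, a Tn5 transposase inserts sequencing adapters into DNA that is free of nucleosomes, so a peak marks a promoter, an enhancer or another accessible site. Alpha cells secrete glucagon when glucose is low, while beta cells secrete insulin when glucose is high and depend on Pdx1, Nkx6-1 and Mafa. The 2 cell types share most of their endocrine transcription factors, and enhancers far from promoters are known to carry much of what differs between related cell types. In pools of sorted cells, a site that is open in fewer cells and a site that is less open in every cell cannot be told apart.

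The sequences below are those of the strongest selective regions and of the marker genes' selective regions. Each is the GRCm38 (mm10) reference, plus strand, 5′ to 3′, of 200 bp around the mean summit of the region, and capitals mark exact matches on either strand to short motifs of islet or general factors. Bases in annotated untranslated exons were left out, so the Ccna1 and Gcg stretches are shorter.
Papss1, alpha-selective, chr3:131802976-131803175: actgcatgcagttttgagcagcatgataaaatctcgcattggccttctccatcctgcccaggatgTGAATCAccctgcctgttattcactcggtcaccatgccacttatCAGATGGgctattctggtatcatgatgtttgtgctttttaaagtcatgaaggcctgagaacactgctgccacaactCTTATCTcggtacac
Ccna1, alpha-selective, chr3:55055103-55055251: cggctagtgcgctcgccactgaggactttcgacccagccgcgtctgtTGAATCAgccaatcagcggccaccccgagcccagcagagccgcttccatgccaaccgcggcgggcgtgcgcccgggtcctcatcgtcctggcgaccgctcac
Gcg, alpha-selective, chr2:62483651-62483712: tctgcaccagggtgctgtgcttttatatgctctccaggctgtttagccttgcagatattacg
Irx1, alpha-selective, chr13:71653507-71653706: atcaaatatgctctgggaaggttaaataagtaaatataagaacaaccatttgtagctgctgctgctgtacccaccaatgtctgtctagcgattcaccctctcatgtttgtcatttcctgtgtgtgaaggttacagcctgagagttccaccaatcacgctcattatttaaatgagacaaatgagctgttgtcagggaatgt
Rpia, beta-selective, chr6:70497614-70497813: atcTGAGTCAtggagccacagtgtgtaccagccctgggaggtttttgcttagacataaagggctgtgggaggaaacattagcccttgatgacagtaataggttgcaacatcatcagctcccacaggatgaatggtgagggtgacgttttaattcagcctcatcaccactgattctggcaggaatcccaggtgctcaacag
Iqcm, beta-selective, chr8:75549361-75549560: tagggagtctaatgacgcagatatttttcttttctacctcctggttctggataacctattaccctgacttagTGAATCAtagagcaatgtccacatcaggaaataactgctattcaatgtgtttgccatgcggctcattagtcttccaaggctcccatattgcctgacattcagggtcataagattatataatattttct
Slc2a2, beta-selective, chr3:28734839-28735038: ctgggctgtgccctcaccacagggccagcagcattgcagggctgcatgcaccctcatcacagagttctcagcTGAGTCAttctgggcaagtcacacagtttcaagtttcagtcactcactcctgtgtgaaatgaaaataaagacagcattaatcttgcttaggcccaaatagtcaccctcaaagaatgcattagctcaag
The AP-1 motif (TGANTCA, where N is any base) stood in 5 of these 7 stretches, all 3 beta-selective ones among them. Over whole sets of 200 bp windows it stood in 17.7% of alpha-selective and 23.7% of beta-selective regions. In regions held by at least 2 of the 5 alpha and beta lists the share was 14.6%. The 7 stretches were picked as strongest or as markers and do not stand for the sets. The match read TGAGTCA at Rpia and Slc2a2 and TGAATCA at Papss1, Ccna1 and Iqcm. The Papss1 stretch also held a NEUROD E-box (CAGATGG) and a GATA motif (AGATAAG, on the minus strand).

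The lists differed in length and in the strength of their peaks before any comparison. Sequencing depth also differed, as the study's quality table gives fewer unique mapped reads for every beta library it kept than for either alpha library. The part of depth in the selective calls was not tested. Beta 1 had the longest list, with 518503 peaks against 75860 to 158066 in the other 6 libraries, but the fewest peaks at a −log10 q of at least 2, which were 25903 (4.996% of its list). This threshold, a false discovery rate of 1% as the authors' peak caller estimated it, was passed by 29.8% to 54.9% of the peaks in the other 6 lists. A peak that is missing from a list therefore does not show that the site was closed.

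Alpha-selective regions were the more numerous, but this order depended on how many beta lists were asked to hold a peak. Of the 100992 regions that at least 2 of the 5 lists held, 7403 (7.33%) were alpha-selective and 2158 (2.14%) beta-selective, while 18866 were held by all 5. Without beta 1, the counts were 14559 and 3566. Without beta 2 they were 8528 alpha-selective and 10246 beta-selective, and without beta 3 they were 9413 and 10145, so the order turned when the longest list was 1 of only 2 beta lists. It also turned when at least 2 of the 3 beta lists sufficed, with 19687 beta-selective regions. Just outside the rule lay 10187 regions that both alpha lists and a single beta list held, and 2398 that all 3 beta lists and a single alpha list held. The 2 counts are therefore given as what the lists hold and not as how much chromatin is open in either cell type.

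The peaks in these regions were modest in height. Of the alpha-selective regions, 2459 (33.2%) reached a −log10 q of 2 in both alpha lists. Of the beta-selective regions, 417 (19.3%) did so in all 3 beta lists, with a median −log10 q of 1.10 in beta 1, 2.42 in beta 2 and 2.48 in beta 3. Counts at this threshold are given below as regions at −log10 q of 2 in every list of their cell type.

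With all peaks, held-out beta libraries had a peak more often in beta-side regions, but so did the held-out alpha libraries in most choices. With 1 alpha and 1 beta library held out in each of 6 choices, the held-out beta library had a peak in 24.4% to 65.9% of the beta-side regions and 3.06% to 22.9% of the alpha-side regions, with the beta side higher in all 6. The held-out alpha library had a peak in 11.3% to 20.8% of the alpha-side regions and 14.3% to 36.4% of the beta-side regions, and the beta side was higher in 5 of the 6. Within the alpha side, the held-out alpha library exceeded the held-out beta library unless the latter was beta 1. The shares were 15.0% against 4.44% with alpha 1 and beta 2 held out, and 20.8% against 22.9% with alpha 1 and beta 1 held out. With only peaks at a −log10 q of 2, the held-out alpha library had 32.4% to 42.9% of the alpha side and 22.2% to 44.7% of the beta side, and the beta side was again higher in the 3 choices that held out alpha 2. Alpha-side regions rested here on a single alpha list and beta-side regions on 2 beta lists, so the sides are not matched, and the shares do not carry over to the members.

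The marker genes of alpha cells fitted their label, and those of beta cells did so only in part. Gcg, which encodes glucagon, had 4 alpha-selective regions among the 7 regions nearest to it that at least 2 lists held. The strongest covered its transcript start at chr2:62483427-62483948, with a −log10 q of 16.8 in alpha 1 and 16.5 in alpha 2, no peak in any beta list, none in delta 1 and 2.40 in delta 2. A second region 1320 bp upstream of the start was held by all 5 lists, with −log10 q between 3.96 and 12.5, so openness near Gcg was not limited to alpha cells. Both alpha lists also held a region 18654 bp from the Gcg start that lies in an exon of the neighbouring gene Fap (4.52 and 6.25), and neither delta list held it.

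Irx1, a homeobox gene of alpha cells, had 4 alpha-selective regions and 1 beta-selective region among 29. One of the alpha-selective regions lay 715 bp from its start (−log10 q of 3.86 in alpha 1 and 1.95 in alpha 2), and the strongest by its weaker value lay 305445 bp away (6.53 and 2.95). The beta-selective region, 136921 bp away, had values of 0.0774, 3.04 and 2.52 in beta 1, beta 2 and beta 3. The Irx1 locus thus held regions of both directions, with the beta one close to absent from beta 1.

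Slc2a2, the glucose transporter GLUT2 of mouse beta cells, had a single beta-selective region among 18, at chr3:28734663-28735124, 36760 bp from its start. Its −log10 q was 2.81 in beta 1, 9.10 in beta 2 and 7.51 in beta 3, and 1.84 and 5.44 in delta 1 and delta 2. Ins2, 1 of the 2 mouse insulin genes, had no beta-selective region and 2 weak alpha-selective ones among 3. A peak over the Ins2 start was held by beta 1 alone, at a −log10 q of 1.07. The remaining region of at least 2 lists, 1729 bp from a start, was held by beta 1 (0.0774) and beta 3 (0.909) and by no alpha list. Peaks this weak and not shared by all beta lists do not separate the cell types at this gene, and Ins2 gives no check of the beta labels.

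**Figure D1:**
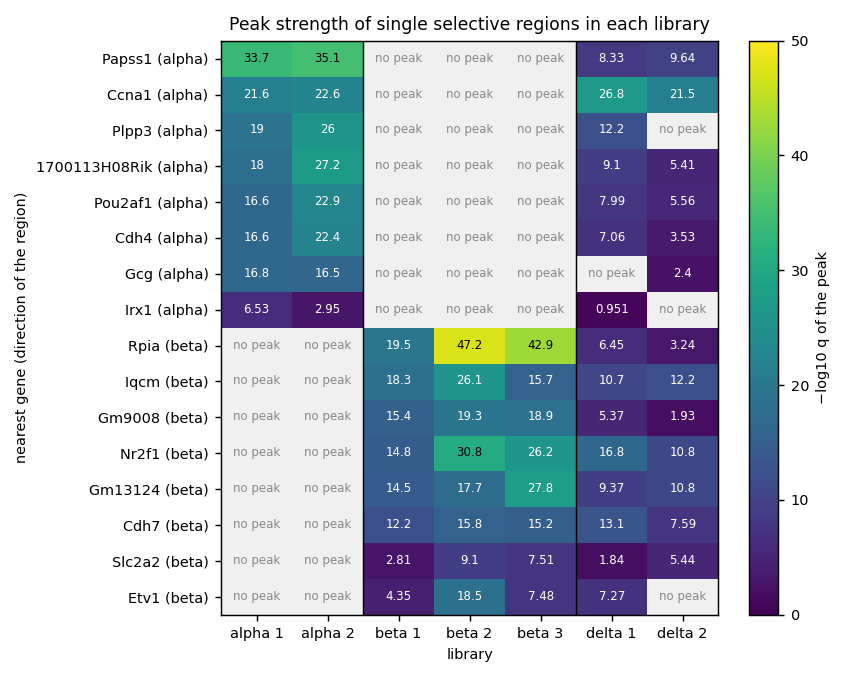
Peak strength of 16 selective regions in the 7 libraries, as the −log10 q of the region's peak (colour and number). Rows are the 6 strongest regions of each direction and the strongest selective region of Gcg, Irx1, Slc2a2 and Etv1, named by nearest gene. The delta columns had no part in the choice, and most rows of either direction have a delta peak.

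Most identity genes of alpha cells carried a region selective for their own cell type, and most of those of beta cells did not. Of 12 alpha identity genes, 10 had at least 1 alpha-selective region, beside 21.8% of all 21844 protein-coding genes, and 14 of their 22 regions were at −log10 q of 2 in both alpha lists. By region, 12.6% of those at these genes were alpha-selective, beside 7.33%. Irx2 had 3, of which the strongest lay 185369 bp away (5.59 and 3.50), and Slc7a2, an amino acid transporter, had 2 in its introns with values between 2.41 and 3.26. Etv1, Fap, Gc, Pou3f4 and Ttr also had alpha-selective regions, and Slc38a5 had none. Etv1, an ETS factor, also had 2 beta-selective regions, the stronger with 4.35, 18.5 and 7.48 in the 3 beta lists.

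Of 18 beta identity genes, 4 had a beta-selective region, beside 7.55% of all protein-coding genes, and 5 had an alpha-selective one. By region, 2.63% were beta-selective, beside 2.14%. The beta-selective regions belonged to Mafa, Slc2a2, Ucn3 and G6pc2, and the Slc2a2 region alone was at −log10 q of 2 in all 3 beta lists. The region nearest Mafa, a transcription factor of mature beta cells, lay 29830 bp away inside Zc3h3, with 0.0774, 4.40 and 1.43 in the 3 beta lists. The region 1296 bp from the start of Ucn3, a peptide hormone of mature beta cells, had 0.0774, 0.816 and 2.64. For G6pc2, the islet glucose-6-phosphatase subunit, the values were 0.413, 2.91 and 1.23. The alpha-selective regions near Ins1, Ins2, Ero1lb, Pcsk1 and Ffar1 never reached a −log10 q of 2 in both alpha lists. Pdx1 and Nkx6-1 had no selective region of either direction.

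The contrast between the identity lists depended on the lists in use. Without beta 1, 8 of 18 beta identity genes had a beta-selective region, beside 11.4% of all genes, and 11 of 12 alpha identity genes had an alpha-selective one, beside 33.9%. With peaks at a −log10 q of 2 alone, these counts were 2 of 18 beside 2.98%, and 11 of 12 beside 22.6%.

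Some genes were nearest to several selective regions. Regions that at least 2 lists held were also uneven over genes, with a mean of 4.62 and a median of 2 per protein-coding gene. Of all protein-coding genes, 1500 (6.87%) were nearest to 2 or more alpha-selective regions and 618 (2.83%) to 3 or more, and genes with 2 or more held 56.0% of these regions. For beta-selective regions, 339 genes (1.55%) had 2 or more and 104 (0.476%) had 3 or more, and genes with 2 or more held 39.3%. The shares held by genes with 2 or more were not set against the same share over all regions, so they do not show clustering. Genes with large territories collect more regions of any kind, so each count is given beside the number of regions at that gene that at least 2 lists held.

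Magi1 and Ntm led the alpha-selective ranking. Magi1, a scaffold protein of cell junctions, had 13 alpha-selective regions among 36 and no beta-selective one, with 6 at −log10 q of 2 in both lists. Its strongest region was intronic, 44025 bp from a start, with a −log10 q of 7.84 in alpha 1, 15.2 in alpha 2 and 4.59 in delta 2, and no peak in delta 1. Ptprg, a receptor tyrosine phosphatase, had 9 of 37, all 9 in its own introns, and 7 of the 9 were at −log10 q of 2, the most of any gene. Pde4b, which degrades cAMP, had 9 of 38, of which 3 lay within 3 kb of a start, and the strongest had 4.56 and 13.7.

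The other leading genes ranged from mostly strong to mostly weak peaks. Ntm, an adhesion molecule of the immunoglobulin superfamily, had 11 of 76 and all 11 lay within the gene, the strongest with 8.24 and 15.9. Rbms3, an RNA-binding protein, had 9 of 47 and Fhit, a gene at a chromosomal fragile site, had 9 of 72. Grik4, a kainate receptor subunit, had 8 of 17 and Gfra1, the GDNF receptor, 8 of 18, yet only 1 region of each reached a −log10 q of 2 in both lists. 1700113H08Rik had 8 of 15 and Adamts16, a secreted protease, 8 of 23. By share, the alpha-selective part of the regions ran from 12.5% at Fhit to 53.3% at 1700113H08Rik, beside 7.33% over all regions of at least 2 lists.

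Further genes entered through their number of stronger peaks. Map2k6, a kinase upstream of p38 MAPK, had 5 alpha-selective regions among 8, and 4 of the 5 were at −log10 q of 2. One of them covered a Map2k6 start (2.16 and 5.60), and the region 79928 bp into the gene had 4.19 and 3.15. Slc39a11, a zinc transporter, had 7 of 14, Cacna2d3, an auxiliary calcium channel subunit, 7 of 23, Fam49a 6 of 23, Tcerg1l 6 of 16 and Tenm4, a teneurin adhesion protein, 6 of 99. In each of these 6 genes, 4 or 5 regions were at the stronger threshold.

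Nrxn3 and Pcdh9 led the beta-selective ranking, at genes with many regions of any kind. Nrxn3, a neurexin of synapses and of secretory cells, had 8 beta-selective regions among 78, 4 of them at −log10 q of 2, beside 3 alpha-selective ones. Its strongest region lay in an intron 85505 bp from a start, with a −log10 q of 6.27, 5.58 and 5.06 over beta 1 to 3, while delta 1 had 5.16 and delta 2 9.33. The protocadherins Pcdh9 and Pcdh20 had 7 of 102 and 6 of 85, and those of Pcdh20 were all below a −log10 q of 2 in at least 1 beta list. Nr2f1, which encodes the nuclear receptor COUP-TFI, had 5 of 46 with 3 at −log10 q of 2, and Nrg3, a neuregulin, 5 of 48.

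The remaining leading genes on the beta side had fewer regions of any kind than Nrxn3. Abca13, an ABC transporter, had 6 of 30, Klhl29 6 of 44, B3galt2, a galactosyltransferase, 6 of 46, Cdk5rap2, a centrosome protein, 6 of 47 and Mcph1, which acts in the DNA damage response, 5 of 33. Beta-selective shares ran from 6.86% at Pcdh9 to 20% at Abca13 over the 10 genes, beside 2.14% over all regions of at least 2 lists. The beta ranking depended on the annotation. With transcript starts of all gene types, 6 of these 10 genes kept a beta-selective region, 3 kept 2 or more and the highest count was 3, and within 100 kb of a start 7 kept one and the highest count was 5. The 10 alpha genes kept more, with 9 and 10 of 10 and a highest count of 9 under either choice. Among genes that entered through stronger peaks, Mtnr1b, the melatonin receptor of beta cells, had 2 of 6, both at −log10 q of 2. The one in its intron, 7328 bp from the start, had 5.94, 2.57 and 5.19, and the one 71438 bp away had 3.21, 6.92 and 11.4 and no delta peak. C1qtnf7 had 4 of 13, Pcca, a mitochondrial carboxylase subunit, 3 of 10, 1700015G11Rik 3 of 42, Gm13124 2 of 5 and Olfr630, an olfactory receptor, both of its 2 regions.

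**Figure D2:**
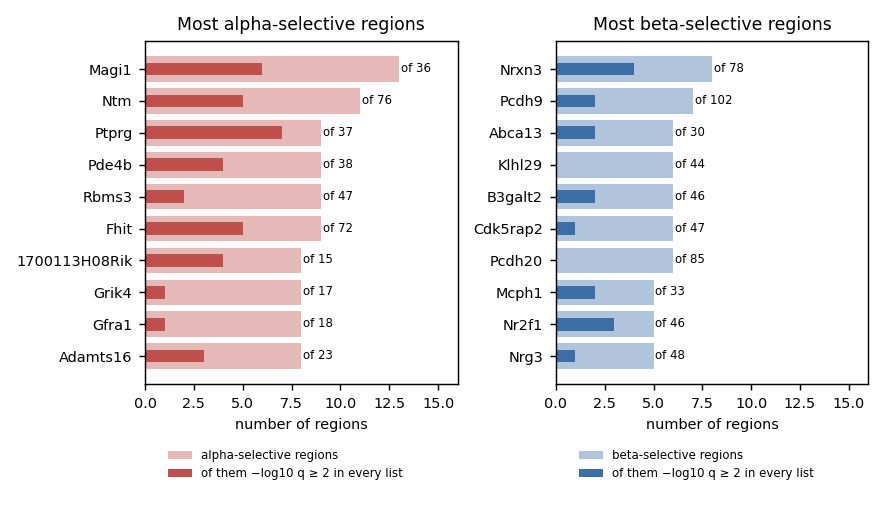
Number of selective regions at the 10 genes with the most alpha-selective (left) and the most beta-selective regions (right). Wide bars are all selective regions, narrow bars those at −log10 q of at least 2 in every list of the cell type, and "of" gives all regions at the gene held by at least 2 of the 5 lists. Magi1 reaches 13 and Nrxn3 8, and with starts of all gene types the highest counts are 9 and 3.

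Regions of both directions lay near the same gene at 777 genes (3.56%). Tenm4 had 6 alpha-selective and 5 beta-selective regions, and Ccser1, Efna5 and Gm9008 had 5 of each. Efna5, an ephrin ligand, had an alpha-selective region 5073 bp from its start (3.27 and 4.04) and a beta-selective one in an exon 273391 bp away (2.99, 9.75 and 2.57). At Tenm4 the strongest of each kind were both intronic, the alpha-selective one at 8.24 in alpha 1 and 3.61 in alpha 2, the beta-selective one at 4.94, 3.96 and 5.29 over beta 1 to 3. These 4 genes had 51 to 99 regions each that at least 2 lists held.

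The strongest single alpha-selective region lay 238019 bp from the Papss1 start, at chr3:131802918-131803286. It had a −log10 q of 33.7 in alpha 1 and 35.1 in alpha 2, and 8.33 and 9.64 in the delta lists. Papss1, which makes the sulfate donor PAPS, was the nearest gene, which does not show that it is the target. Next came the Ccna1 region, over the start of this cyclin gene (21.6 and 22.6), which the delta lists held as strongly (26.8 and 21.5). Regions near Plpp3, 1700113H08Rik, Pou2af1 and Cdh4 followed, with values between 16.6 and 27.2 in the alpha lists. The Pou2af1 region was exonic, 5782 bp from a start, and those of Papss1 and Plpp3 were intergenic and over 100 kb from any start.

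The strongest beta-selective region stood 294194 bp from the nearest start, that of Rpia, at chr6:70497478-70498038. Its −log10 q was 19.5 in beta 1, 47.2 in beta 2 and 42.9 in beta 3, and 6.45 and 3.24 in the delta lists. The Iqcm region was intronic (18.3, 26.1 and 15.7), and the Gm13124 region lay 2645 bp from a start (14.5, 17.7 and 27.8). The regions nearest Gm9008, Nr2f1 and Cdh7 were 703484, 798940 and 1118194 bp away, so the gene names serve as addresses. All 6 had a peak in both delta lists, as had 5 of the 6 strongest alpha-selective regions.

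Selective regions also lay in chains less than 50 kb apart. There were 264 chains of 3 or more alpha-selective regions and 12 of 3 or more beta-selective ones. The sets differ in size, with 7403 and 2158 regions, and chains were not counted over all regions. These counts therefore do not show that either set is clustered. The densest alpha chain held 6 regions within 96434 bp at Dclk3, a doublecortin-like kinase gene, among 9 regions of at least 2 lists. It ran from the Dclk3 start, where the first region had 5.46 and 7.52, to a region 95748 bp away (1.09 and 7.72), and 2 of the 6 were at −log10 q of 2. Further chains of 6 lay at Mtfr2 and Pde7b on chromosome 10 (none at −log10 q of 2), at 2010111I01Rik and Fancc on chromosome 13 and at Magi1 on chromosome 6 (4 of 6).

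The 2 densest beta chains lay in multigene families. The first held 6 regions within 118795 bp on chromosome 5 at Gm21083, Speer4d, 4930572O03Rik and Speer4c, and the second 4 within 95108 bp on chromosome 7 between olfactory receptor genes and the globin gene Hbb-bt. Chains of 3 followed at Tpbpa and Ctsj on chromosome 13 and at Mcph1 on chromosome 8. The Speer4 and olfactory receptor genes belong to families of related copies. How uniquely reads map there was not examined, so the place of these regions is uncertain.

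The 2 directions differed in where they lay. Of the alpha-selective regions, 15.2% (Wilson 95% interval 14.4 to 15.99) were within 3 kb of a start, against 7.74% (6.68 to 8.94) of the beta-selective ones, 19.8% of all regions of at least 2 lists and 51.2% of those held by all 5. The median distance to a start was 32659 bp for alpha-selective and 64191.5 bp for beta-selective regions, and 24.6% and 41.1% lay over 100 kb away. Introns held 37.4% and 31.2%, and intergenic DNA 43.6% and 57.6%. The intervals cover counting error only, neighbouring regions are not independent, and no test was made. The order turned in 1 case, without alpha 2, where the shares near a start were 7.25% and 9.35%.

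**Figure D3:**
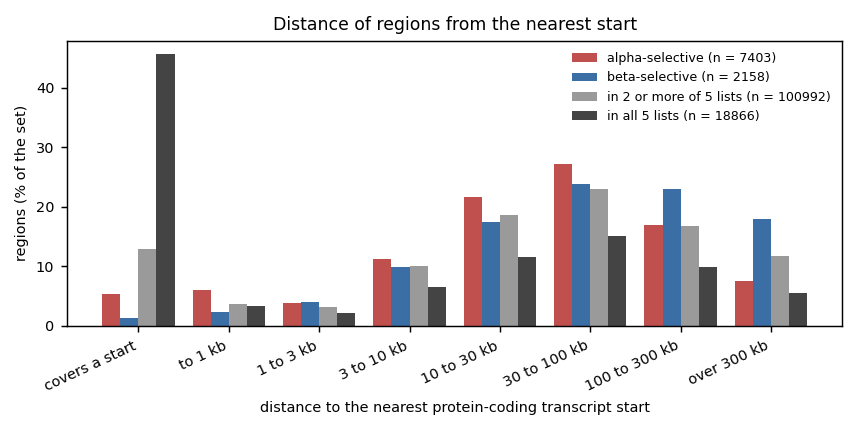
Share of regions (y axis, %) by distance to the nearest protein-coding transcript start (x axis). Regions held by all 5 lists cover a start in 45.6% of cases, alpha-selective regions in 5.32% and beta-selective regions in 1.34%.

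Regions over a start were few and were chosen for naming after their values were seen. Of 394 alpha-selective regions over a start, 183 were at −log10 q of 2 in both lists, and strong ones beside those of Ccna1 and Gcg belonged to Arhgap32 (15.9 and 23.0), Kcna5, a voltage-gated potassium channel (24.6 and 13.6), and Slc9b2 (19.2 and 13.3). The list also held Eif3d, a translation initiation factor that every cell uses (9.74 and 17.8), with no peak in any beta list. An absent beta peak is therefore not read here as a closed promoter. Of 29 beta-selective regions over a start, 3 were at −log10 q of 2 in all lists, at Gm16223, Inava (6.69, 3.04 and 17.6) and Sval2.

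The delta libraries gave a readout that the rule did not use. Delta 1 held a peak in 48.9% of the alpha-selective and 53.6% of the beta-selective regions, and delta 2 in 34.1% and 41.7%. Both delta lists held 26.8% and 31.9%, and neither held 43.8% and 36.7%. Of all regions of at least 2 lists, delta 1 held 51.0% and delta 2 43.0%, and of those held by all 5 lists 97.9% and 94.8%. Among regions at −log10 q of 2, the shares rose to 67.8% and 52.0% for alpha-selective and 75.5% and 64.7% for beta-selective ones. More than 50% of these stronger regions thus had a peak in each delta library. The mean over both delta libraries was higher for beta-selective regions, 47.6% against 41.5%, but it was lower when any beta library was left out, for example 37.3% against 46.2% without beta 1, and when at least 2 of the 3 beta lists sufficed (18.3%).

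Gene groups of islet function were next counted, each beside the share of all protein-coding genes with such a region (21.8% alpha, 7.55% beta). A list gene had a median of 2 to 30 regions held by at least 2 lists, depending on the list, and a protein-coding gene a median of 2, so the share of regions is the fairer measure. Genes named in these groups are the members with the most selective regions or, for Gipr, P2ry1, Nkx2-2, Nrp1, Ntn1, Hk1 and Hk2, were chosen after their values were seen. Of 22 transcription factors shared by endocrine cells, 17 had an alpha-selective region and 6 a beta-selective one, and their 35 alpha-selective regions were 11.2% of the 312 regions at these genes. Foxa2, a pioneer factor of endoderm, led with 6 of 26, all between 23658 and 251066 bp away. Nr2f2 had 5 of 60, and Gata6 and Onecut2 had 3 each. Nkx2-2 had 1, 61667 bp away (4.52 and 2.36), which both delta lists held more strongly (8.59 and 10.4). None of the 7 beta-selective regions of this group was at −log10 q of 2.

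Channels and receptors followed. Of 17 calcium and sodium channel genes, 9 had an alpha-selective region and 3 a beta-selective one, and by region 12.3% were alpha-selective and 1.42% beta-selective, beside 7.33% and 2.14%. Cacna1c, an L-type calcium channel, had 6 of 36, among them 1 over a transcript start (7.16 and 10.4), Cacna1e, an R-type channel, had 6 of 22 and the subunit gene Cacnb2 5 of 32. Of 18 potassium channel genes, 8 and 3 had such regions, with Kcnma1, the BK channel, at 8 alpha-selective of 41, but by region this group stood at 5.74% alpha-selective, below the 7.33% of all regions. Of 28 islet G protein-coupled receptors, 11 had an alpha-selective region and 2 a beta-selective one, and by region the shares were 9.30% and 1.86%. Adra2a, the adrenaline receptor that restrains insulin release, had 4 of 8, all more than 100 kb away, and Gipr, the GIP receptor, had 1 in an exon (3.99 and 4.18). The purinergic receptor gene P2ry1 had both of its selective regions on the beta side, with 5.26, 18.2 and 8.32 in the stronger.

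Glucose handling was the group in which beta-selective regions were as common as alpha-selective ones, with 5 of 11 genes each and, by region, 9.09% alpha-selective and 7.79% beta-selective. On the beta side were Slc2a2, Slc2a3, G6pc2, Hk1 and Kcnj8, and 4 of their 6 regions were at −log10 q of 2. The Hk1 region, 1267 bp from a start of this hexokinase gene, had 8.26, 4.25 and 3.24 over beta 1 to 3 and no delta peak. Hk1 is known as a gene that beta cells keep silent, and expression was not measured in these libraries. On the alpha side were Abcc8 with 3, the KATP channel genes Kcnj11 and Abcc9, Hk1 and the hexokinase gene Hk2, with a single region at −log10 q of 2.

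Axon guidance and adhesion genes had the most selective regions and the most regions of any kind, with a median of 30 per gene. Of 39 genes, 32 had an alpha-selective and 19 a beta-selective region. Counted by region, 71 of 1408 (5.04%) were alpha-selective and 45 (3.196%) beta-selective, beside 7.33% and 2.14% over all regions of at least 2 lists. The group was thus below the background by region for alpha and above it for beta. Epha4 (5 of 31), Nrp1 (4 of 18) and Ntn1 (3 of 13) had alpha-selective regions only, and Cntn5, a contactin, had 5 beta-selective of 59 and no alpha-selective one. Within 100 kb of a start alone, the counts of genes were 20 and 7 of 39.

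Among the signalling groups, 11 genes had an alpha-selective and 4 a beta-selective region of 24 for cAMP signalling, 14 and 2 of 32 for Hippo and Wnt signalling and 14 and 3 of 29 for MAPK signalling. By region, the alpha-selective shares were 10.7%, 9.23% and 6.43%, beside 7.33%, and the beta-selective shares 2.27%, 1.15% and 1.46%, beside 2.14%. In cAMP signalling the phosphodiesterase genes Pde4b, Pde4d and Pde7b held 21 of the 33 alpha-selective regions, and none of the 7 beta-selective ones was at −log10 q of 2. Wnt7b had 4 alpha-selective regions of 10, and Ctnnb1, which encodes beta-catenin, had 2 beta-selective of 18. Hormone granule genes had 11 and 6 of 25, genes known to be disallowed in beta cells 8 and 3 of 18, and delta identity genes 3 and 1 of 7. By region, their alpha-selective shares of 5.61%, 6.29% and 6.25% were all below the 7.33% of all regions.

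**Figure D4:**
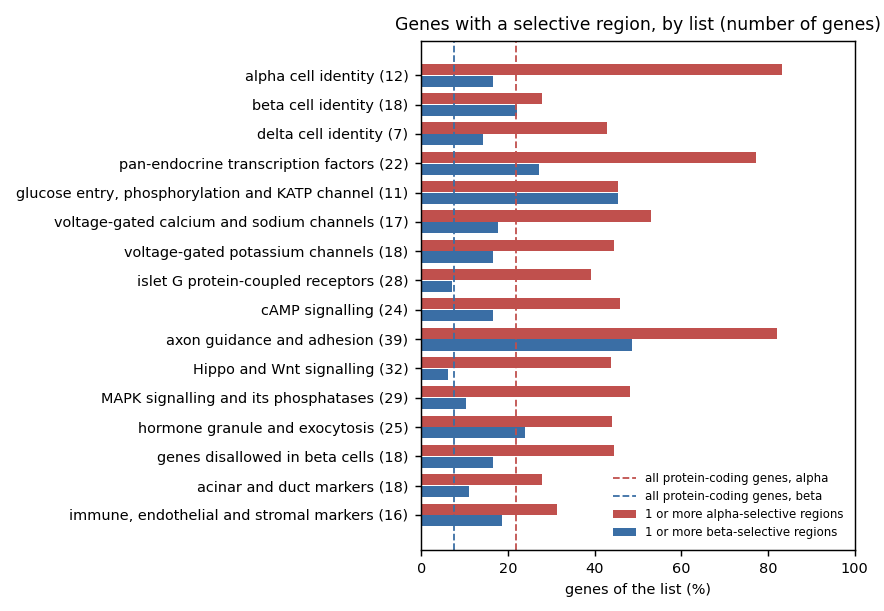
Share of the genes in each list (x axis, %) with at least 1 alpha-selective (red) or beta-selective (blue) region, and the same shares over all protein-coding genes (dashed lines, 21.8% and 7.55%). The alpha identity, shared transcription factor and axon guidance lists stand at 83.3%, 77.3% and 82.1% on the alpha side, but the axon guidance genes also have the most regions of any kind.

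Markers of other cells that a sort of islet cells could carry were counted in the same way. Acinar and duct markers had alpha-selective regions at 5 of 18 genes and beta-selective ones at 2. The 18 alpha-selective regions were 16.98% of the regions at these genes, the highest share of the 16 lists, beside 7.33% of all regions and 12.6% at the alpha identity genes. Of these, 8 lay near Sox9, a transcription factor of duct cells, and 6 near Nr5a2, one of acinar cells. Among the enzyme genes, Pnlip had 2, and Cpa1, Cela1, Cela2a, Cela3b, Ctrb1, Prss2 and Cel had none. Immune, endothelial and stromal markers had 5 and 3 of 16, and by region 6.11% were alpha-selective. The part of such cells in the selective regions was not tested.

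Base composition and short motifs were then read in 200 bp around the summits. The median GC content was 49.0% in alpha-selective, 45.5% in beta-selective and 48.5% in all regions of at least 2 lists, and over 3 kb from a start it was 48.0%, 45.5% and 46.5%. Windows of which most bases were repeat-masked made up 7.19% and 8.67% of the selective regions, against 12.5% of all.

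GATA and homeobox motifs differed in opposite directions between the sets. Over 3 kb from a start, the GATA motif (AGATAAG) stood in 4.60% (4.11 to 5.15) of alpha-selective windows, 1.51% (1.06 to 2.14) of beta-selective ones and 2.81% of all regions of at least 2 lists. The homeobox core (TAATTA), which Pdx1 and Nkx6-1 are among the factors known to bind, stood in 4.51% (4.02 to 5.05), 9.04% (7.86 to 10.4) and 5.88%. In windows with a GC content of 40% to 50%, a comparison added after the base composition was seen, GATA stood in 5.24%, 1.78% and 3.04% and the homeobox core in 5.05%, 9.25% and 6.13%. These are matches of letters and not sites at which a factor was shown to bind.

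The AP-1 motif (TGANTCA) was the most common of the 12, but the motifs differ in how many letters are fixed, so their shares are not compared with each other. Over 3 kb from a start it stood in 18.7% (17.8 to 19.7) of alpha-selective, 24.3% (22.5 to 26.2) of beta-selective and 16.5% of all regions of at least 2 lists, and in 25.6% of those held by all 5. Among regions at −log10 q of 2, whatever their distance, it stood in 20.8% (19.3 to 22.5) of alpha-selective and 32.4% (28.1 to 37.0) of beta-selective ones. The MAF motif (TGCTGAC), whose last letters can begin an AP-1 match, stood in 7.36% and 5.78%, the FOXA motif (TGTTTAC) in 7.10% and 6.58%, the RFX motif (GTTGCCA) in 4.90% and 3.87% and the NEUROD E-box (CAGATGG) in 7.96% and 7.18%, with overlapping intervals between alpha-selective and beta-selective windows for all 4. HNF1 (GTTAATNAT), HNF4 (CAAAGTCCA), CRE (TGACGTCA), ETS (CCGGAAG) and NRF1 (GCGCATGCG) motifs stood in under 2% of either set.

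**Figure D5:**
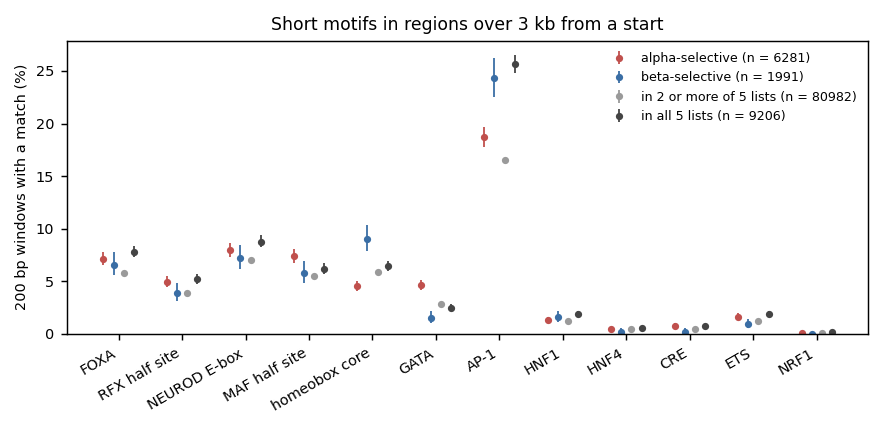
Share of 200 bp windows with a match on either strand (y axis, %) for 12 motifs in regions over 3 kb from a start. Points are shares and bars Wilson 95% intervals, which cover counting error only. GATA is higher in alpha-selective and the homeobox core in beta-selective windows.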

How the data were processed

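ATAC-Seq was done on FACS-sorted alpha, beta and delta cells of mouse islets. The authors trimmed reads with Trimmomatic, aligned them with Bowtie2 to mm10 without mitochondrial DNA, marked duplicates with Picard, took out blacklisted regions and called peaks with MACS2, for which each library has its own list. Versions, the calling threshold and any shift of reads for the Tn5 cut are not given in the sources used here. The deposited lists give for each peak a score, a fold enrichment over background (a ratio), a −log10 p and a −log10 q, which hold the authors' p-values and q-values per library. Read counts were not used here, so no differential test was made, and p-values inside a list do not compare cell types.

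Groups came from the labels. The study describes the cell types as taken from the same animals, with mice pooled by sex. Alpha and delta cells were however marked in different crosses, and the labels do not tie a library to a pool. Regions were merged and counted in Python 3.11.15 (pandas 2.3.3, numpy 2.4.6, scipy 1.17.1), and bedtools 2.31.1 served to check the merging on simulated peaks. Genes were the 21844 protein-coding genes of GENCODE M21. A region was promoter-proximal within 3 kb of a transcript start, and chains joined regions less than 50 kb apart. Intervals are Wilson 95%, for counting error only. The scripts were tested on simulated peaks.

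The members and gene lists were chosen with earlier results of these data known. Genes were named by rule. Per direction these were the 10 with the most selective regions, the next 6 by regions at −log10 q of 2, the 6 strongest regions, the 4 densest chains, the markers and identity genes with a selective region, the 4 leading genes with both directions, and the leading members of the other lists. Alternatives covered the peak threshold, list length, overlap, annotation, promoter width and each library left out. Some genes that the rule names are not reported here.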

Additional observations from a re-analysis of the deposited data

How the results depend on the processing

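Alpha-selective regions numbered 2459 when a −log10 q of 2 was asked for in the alpha lists alone, and 8528 to 73521 with 1 library left out, the largest without alpha 2. Beta-selective regions numbered 775 with peaks at a −log10 q of 2 in every list, 417 with that threshold in the beta lists alone, 1247 with the 50000 peaks of lowest p per list, 19687 with at least 2 of 3 beta lists, and 2987 to 10246 with 1 library left out, the largest without beta 2. Genes with 2 or more regions numbered, for alpha, 343 with the threshold in the alpha lists alone and 1768 to 10030 with 1 library left out, and for beta, under the same 4 settings, 94, 40, 177 and 3507, then 157 with starts of all gene types, 104 within 100 kb, and 531 to 2056 with 1 library left out. Alpha stayed ahead of beta in both counts except without beta 2, with at least 2 of 3 beta lists and, for regions, without beta 3.

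The promoter-proximal share of alpha-selective regions was 21.6% at a −log10 q of 2 in every list, 17.5% with the threshold in the alpha lists alone, 20.4% with 50000 peaks, 23.6% with at least 0.5 of a region covered, 11.6% from gene 5′ ends, 25.9% from starts of all gene types, 11.3% within 1 kb, and 7.25% to 18.1% with 1 library left out. For beta-selective regions it was 6.58%, 6.24%, 6.64% with at least 2 of 3 lists, 9.27% with 0.5 covered, 5.42% from gene 5′ ends, 17.3% from all starts, 3.75% within 1 kb, and 6.25% to 9.35%. The mean share with a delta peak was 59.9% (alpha) and 70.1% (beta) with the threshold in the cell type's own lists, 18.3% for beta with at least 2 of 3 lists, and 8.13% to 47.6% and 20.4% to 58.4% with 1 library left out. Leaving out windows mostly of repeats, chosen after seeing the data, gave 6871 alpha-selective and 1971 beta-selective regions, and 1382 and 301 genes with 2 or more. The causes of these shifts were not tested.

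No paired analysis was possible, because the values come from no test and the labels do not tie a library to a pool of mice. Whether an alpha and a beta library share mice is therefore not known here. Depth limits every absence, and the lists differ in how readily they hold a peak, since beta 1 has the longest list and the fewest peaks at a −log10 q of 2. Peak lists carry no measure of how unequal a site was between cell types.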

Other observations

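Shares by chromosome were taken over the regions that at least 2 of the 5 lists held. Leaving chromosome Y aside, the alpha-selective share ran from 4.85% on chromosome X to 10.04% on chromosome 11. The beta-selective share ran from 0.701% on chromosome 19 to 3.03% on chromosome 16. Chromosome Y had only 359 such regions, and its shares were lower, at 1.67% and 0.279%. Outside the named groups, Vegfa and Akt2 had a beta-selective region over a transcript start, with −log10 q of 1.20, 4.02 and 1.83 and of 1.76, 4.86 and 4.83 in the 3 beta lists. Vegfa encodes the growth factor by which islet endocrine cells attract vessels, and Akt2 encodes a kinase of insulin signalling. Neither region had a peak in a delta list, and both genes were chosen after their values were seen.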
